A study of Mus musculus with 6 samples.

Results

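The histone deacetylases Hdac1 to Hdac10 were examined in ribosome-associated RNA of D2 neurons of the mouse medial prefrontal cortex (mPFC). The members were the rows of the transcript table whose gene name was Hdac1, Hdac2, Hdac3, Hdac4, Hdac5, Hdac6, Hdac7, Hdac8, Hdac9 or Hdac10, which gave 10 of 47729 genes and 81 of 115220 transcripts. Values were FPKM, a fragment count divided by transcript length and library size, and the FPKM of all transcripts with the same gene identifier were summed to a gene total. All animals were male D2Cre/LSL-Flag-Cas9/RiboTag mice aged 2.5 to 3 months, in which Cre driven from a D2 receptor bacterial artificial chromosome switches on Cas9 and a hemagglutinin-tagged Rpl22 ribosomal subunit. The Ctrl group (3 libraries) had received AAV GFP in the mPFC, and the Gsk3sKO in mPFC D2 group (3 libraries, Gsk3sKO here) had received AAV Gsk3sgRNA/GFP, which adds a guide RNA against Gsk3b. The mPFC was dissected 3 weeks later and tagged ribosomes were immunoprecipitated. Cre, Cas9 and the tag were thus present in both groups. Whether a library was 1 mouse or a pool is not given in the sources used here, so p-values measure the spread between libraries, which may be partly technical. The question was at which levels and as which transcripts the deacetylases were present, and whether these differed between Gsk3sKO and Ctrl.

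Histone deacetylases remove acetyl groups from lysines of histones and of many other proteins, and inhibitors of these enzymes change memory and mood-related behavior in rodents. Class I enzymes (Hdac1, Hdac2, Hdac3 and Hdac8) act mostly in the nucleus, all but Hdac8 as catalytic subunits of corepressor complexes. Class IIa enzymes (Hdac4, Hdac5, Hdac7 and Hdac9) bind MEF2 transcription factors and move between nucleus and cytoplasm, since kinases phosphorylate them and 14-3-3 proteins then hold them in the cytoplasm. Class IIb enzymes (Hdac6 and Hdac10) are largely cytoplasmic, with tubulin as a substrate of Hdac6 and acetylated polyamines as substrates of Hdac10.

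The classes differ at 1 residue of the catalytic pocket, which is a tyrosine in classes I and IIb and a histidine in class IIa, whose activity on acetyl-lysine is weak. Coding sequence of 33 bases around this codon is shown because listed transcripts were counted as carrying the catalytic segment where they held it. For Hdac10 the window is that of Hdac10-202, spans an exon junction and was held by 1 of 8 listed transcripts. Whether other Hdac10 transcripts hold the codon beside another junction was not tested. Sequences are 5′ to 3′ on the coding strand, from the GENCODE M21 transcripts of the GRCm38 build, with the codon of the catalytic residue in capitals. Hdac6 has a pair of catalytic domains and is shown with both. No sequence is shown for Hdac3.
Hdac1-201: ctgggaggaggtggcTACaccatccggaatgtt
Hdac2-201: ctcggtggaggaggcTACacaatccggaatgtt
Hdac8-201: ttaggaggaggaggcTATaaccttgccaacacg
Hdac4-202: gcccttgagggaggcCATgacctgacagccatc
Hdac5-204: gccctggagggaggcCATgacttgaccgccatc
Hdac7-203: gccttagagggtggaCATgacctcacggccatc
Hdac9-204: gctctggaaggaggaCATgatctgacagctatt
Hdac6-202, first domain: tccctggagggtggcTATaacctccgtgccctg
Hdac6-202, second domain: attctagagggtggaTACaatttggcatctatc
Hdac10-202: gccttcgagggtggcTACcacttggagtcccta
The tyrosine codon lay at chr4:129518901-129518903 in Hdac1, chr10:36997057-36997059 in Hdac2 and chrX:102402672-102402674 in Hdac8. The histidine codon lay at chr1:91945960-91945962 in Hdac4, chr11:102196599-102196601 in Hdac5, chr15:97796158-97796160 in Hdac7 and chr12:34107278-34107280 in Hdac9. The tyrosine codons of Hdac6 lay at chrX:7938484-7938486 and chrX:7932229-7932231, and that of Hdac10 at chr15:89126073-89126075. All are in coding exons, on the plus strand for Hdac2 and on the minus strand for the rest, and the windows of Hdac8, Hdac6 and Hdac10 span an exon junction. Hdac9-204 is annotated but is not among the transcripts of the table used here.

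The targeted gene, Gsk3b, which encodes the kinase glycogen synthase kinase 3β, had gene totals of 35.6, 53.8 and 56.5 FPKM in Ctrl and of 36.9, 37.0 and 33.6 FPKM in Gsk3sKO. The groups overlapped, since Ctrl replicate 1 lay among the Gsk3sKO libraries, and the log2 fold change was -0.40 ± 0.19 (SE, limma adjusted p = 0.77, not past the unadjusted threshold of 0.05 either). Without Ctrl replicate 1 the log2 fold change was -0.61 and passed the unadjusted threshold (limma adjusted p = 0.69). These values are of RNA. The paper judged the knockout by staining for the kinase protein, which most mPFC cells with both Cas9 and the guide RNA lacked. That staining used D2Cre/LSL-Flag-Cas9 mice, and these libraries hold no measure of protein. Log2 gene totals of any 2 libraries correlated with r from 0.908 to 0.965 across genes. The D2 neuron marker list had 4 of its 5 genes above the filter and a summed level of 98.5 to 318 FPKM in Ctrl and of 146 to 293 FPKM in Gsk3sKO. Drd2 itself, the receptor that defines these cells, stood at 1.58, 6.02 and 14.1 FPKM in Ctrl, against 8.32, 5.96 and 7.28 FPKM in Gsk3sKO. No marker list of any of 7 cell types had a gene at 0 in all libraries.

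Of the 10 genes, Hdac2 was the most abundant, with 46.9 FPKM on average over the 6 libraries. It ranked first in every library. It was followed by Hdac5 (24.5 FPKM), Hdac9 (21.2 FPKM), Hdac3 (17.9 FPKM), Hdac4 (14.7 FPKM), Hdac1 (9.65 FPKM), Hdac6 (8.06 FPKM), Hdac8 (3.44 FPKM), Hdac7 (1.46 FPKM) and Hdac10 (0.429 FPKM). Neighbours in this order were compared within the 6 libraries with an exact paired permutation test, two-sided, which cannot give a p below 0.031. The order came from the same 6 libraries, Ctrl and Gsk3sKO pooled, and the p-values do not allow for that choice. Hdac2 exceeded Hdac5 in 6 of 6 libraries, by 0.92 ± 0.53 on the log2(FPKM + 1) scale (SD, exact p = 0.031). Likewise Hdac4 exceeded Hdac1 in 6 of 6 libraries, by 0.55 ± 0.16 (SD, exact p = 0.031), and Hdac7 exceeded Hdac10 in 6 of 6, by 0.79 ± 0.35 (SD, exact p = 0.031). After adjustment over the 9 neighbour pairs these 3 p-values were 0.094 each. The other 6 neighbour pairs did not pass an unadjusted p of 0.05, with exact p from 0.063 to 0.44. Among them, Hdac6 exceeded Hdac8 by 0.97 ± 0.65 and Hdac8 exceeded Hdac7 by 0.82 ± 0.66, each in 5 of 6 libraries (SD, exact p = 0.063). Genes further apart in the order were not tested. Hdac5 ranked 2 or 3 and Hdac4 ranked 4 or 5 in each of the 6 libraries.

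**Figure D1:**
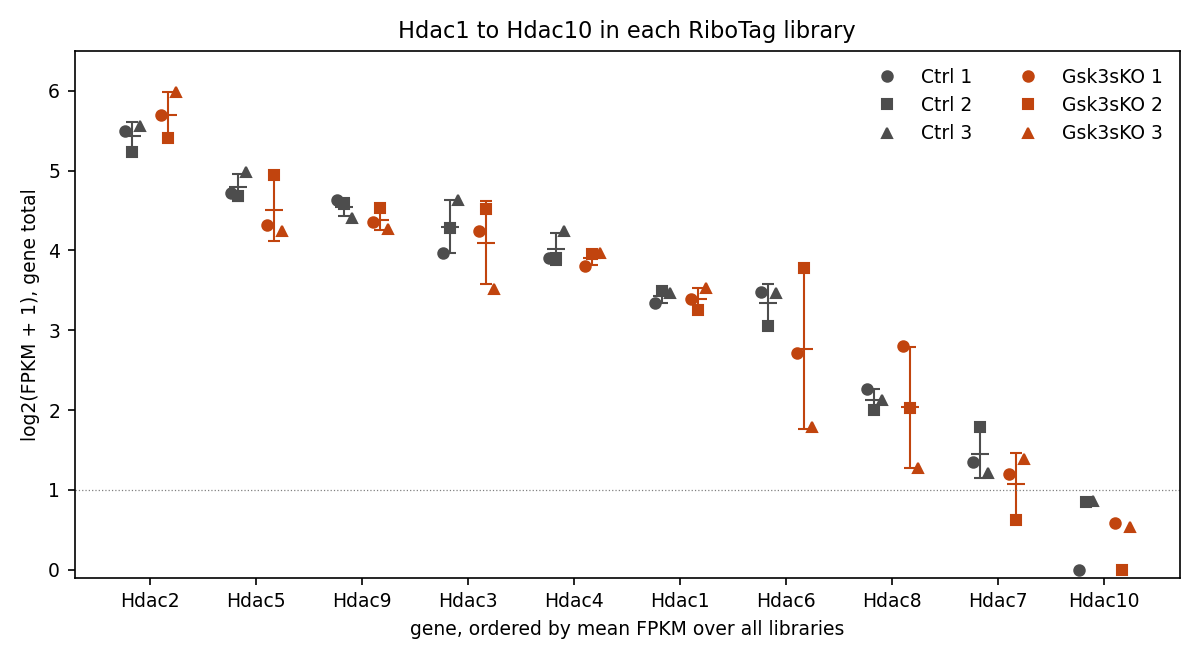
Gene totals of Hdac1 to Hdac10 as log2(FPKM + 1), with 1 point per library (Ctrl in grey, Gsk3sKO in orange, a marker shape per replicate number), and the mean and SD of each group where the gene passed the filter. The dotted line marks 1 FPKM. The Ctrl and Gsk3sKO points overlap for every gene, and Hdac2 stands above the rest in each library.

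By class, class I genes together held 68.4 to 83.2 FPKM in Ctrl and 74.9 to 84.9 FPKM in Gsk3sKO, class IIa genes 64.1 to 70.2 FPKM and 52.4 to 67.0 FPKM, and class IIb genes 8.10 to 10.9 FPKM and 2.92 to 12.8 FPKM. All 10 genes together came to 150 ± 12.3 FPKM in Ctrl and to 146 ± 7.68 FPKM in Gsk3sKO (SD, n = 3). As a share of that sum, class I made up 49.1%, 48.7% and 50.6% in Ctrl and 58.9%, 48.4% and 60.5% in Gsk3sKO. Gsk3sKO replicates 1 and 3 thus lay above the Ctrl range and replicate 2 lay just below it. The share of class IIa was 44.0%, 45.6% and 42.7% in Ctrl and 36.9%, 43.3% and 37.4% in Gsk3sKO, with replicate 2 inside the Ctrl range. With 3 libraries against 3 an exact permutation test cannot give a p below 0.1, so these shares are given as a description.

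Between Gsk3sKO and Ctrl, 9 of the 10 gene totals had a mean of at least 1 FPKM and were tested, and 0 of the 9 passed an unadjusted limma p of 0.05, where 6.56% of all 12874 gene totals tested did. An ordinary linear model without moderated variances also gave 0. For 0 of the 9 were the groups free of overlap, which held for 12% of all gene totals tested. The fold change was negative for 8 and positive for 1, with a median log2 fold change of -0.16 beside -0.06 over all gene totals. In bulk libraries such as these, fewer cells of a type and less RNA per cell cannot be told apart. At the level of single transcripts, 65 of the 81 were above 0 in at least 1 library and 18 reached a mean of 1 FPKM, of which 0 were called (background 5.56% of 21584 transcripts) and 0 had groups that did not overlap (background 11.2%). The count of called genes depended on 1 library. Without Gsk3sKO replicate 2, in which 5.01% of all gene totals were called, Hdac5 (log2 fold change -0.51) and Hdac6 (-1.08) were called lower, each with a limma adjusted p = 0.90.

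**Figure D2:**
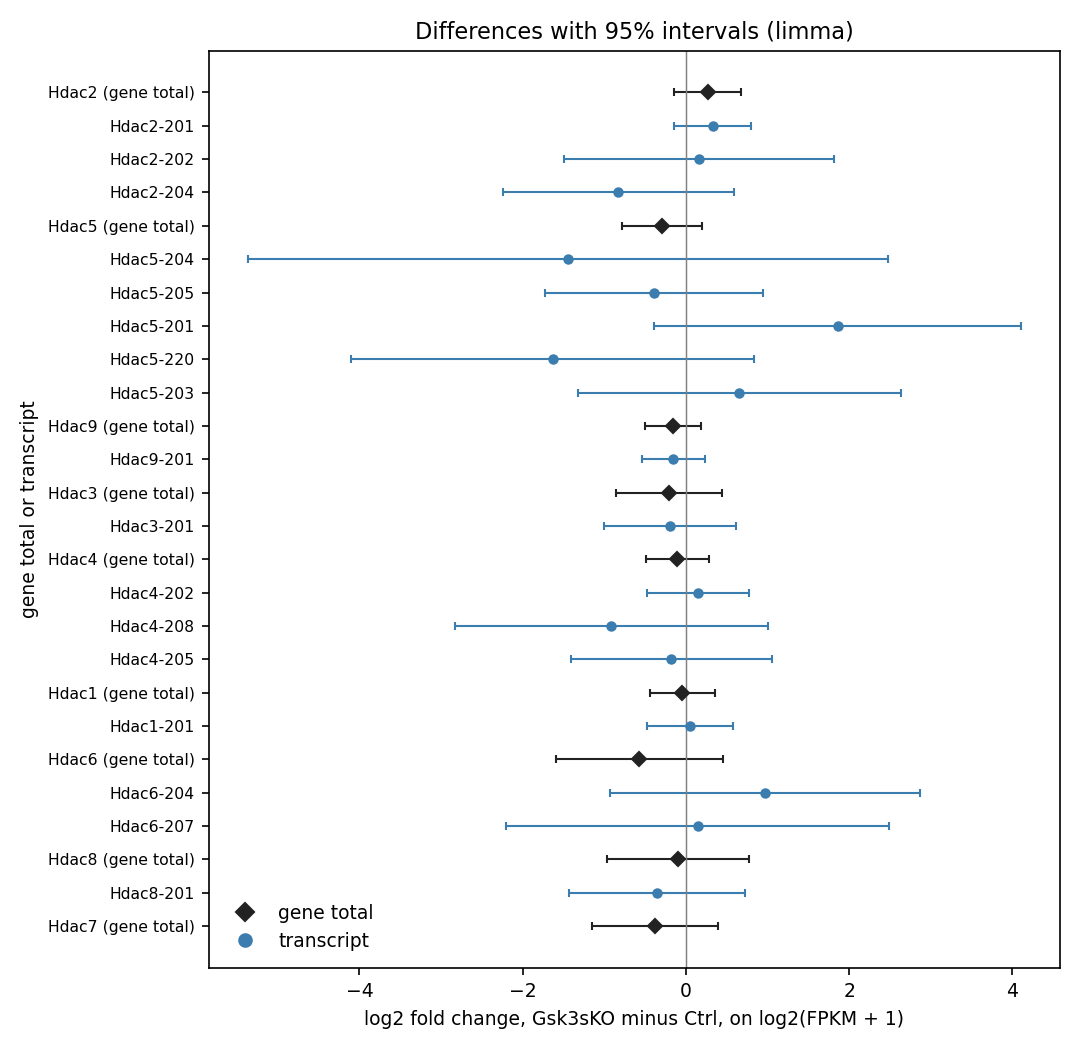
Log2 fold changes (Gsk3sKO minus Ctrl, on log2(FPKM + 1)) with 95% intervals from limma, for the 9 gene totals tested (diamonds) and the transcripts tested (circles). Hdac6-202 is left out, since it was listed at 0 in all Gsk3sKO libraries. Every interval includes 0, and the intervals of the Hdac5 and Hdac6 transcripts are wider than those of the gene totals.

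In class I, Hdac1 and Hdac2 are the catalytic subunits of the Sin3, NuRD and CoREST corepressor complexes. Hdac1 (chr4:129516104-129542713, minus strand) was at 9.09, 10.29 and 10.04 FPKM in Ctrl, against 9.48, 8.5 and 10.5 FPKM in Gsk3sKO. The groups overlapped throughout, with a log2 fold change of -0.04 ± 0.18 (SE, limma adjusted p = 0.97, 95% interval -0.45 to 0.36). It was also among the steadiest genes of its level, since the SD of log2(FPKM + 1) within groups was 0.12 and only 6.20% of 5004 genes with a mean of 0.5 to 2 times that of Hdac1 had a smaller one. Its coding transcript Hdac1-201 (ENSMUST00000102597) held 75.6% to 98.6% of the gene total and led in every library, while the rest lay in transcripts annotated with a retained intron.

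Hdac2 (chr10:36974544-37001889, plus strand), the deacetylase most often tied to synaptic plasticity and memory in the brain, was at 44.3, 36.6 and 46.0 FPKM in Ctrl, against 50.8, 41.3 and 62.5 FPKM in Gsk3sKO. It was the 1 member with a positive fold change, 0.27 ± 0.18 (SE, limma adjusted p = 0.82, 95% interval -0.15 to 0.68), and Gsk3sKO replicate 2 lay within the Ctrl range. Its full coding transcript Hdac2-201 (ENSMUST00000019911) was at 39.3, 31.8 and 40.2 FPKM in Ctrl, against 49.4, 37.1 and 55.0 FPKM in Gsk3sKO (log2 fold change 0.33 ± 0.20, SE, limma adjusted p = 0.87). Without Gsk3sKO replicate 2 this transcript passed the unadjusted threshold (log2 fold change 0.49, limma adjusted p = 0.91). The shorter coding transcript Hdac2-202 stood at 0.97, 2.01 and 1.64 FPKM in Ctrl, against 0.022, 3.19 and 4.11 FPKM in Gsk3sKO. The processed transcript Hdac2-204 stood at 1.28, 2.19 and 4.16 FPKM in Ctrl, against 0, 1.07 and 2.26 FPKM in Gsk3sKO, and both overlapped between groups.

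Hdac3 (chr18:37935844-37955016, minus strand), the catalytic subunit of a nuclear corepressor complex, was at 14.7, 18.5 and 23.8 FPKM in Ctrl, against 17.9, 22.0 and 10.4 FPKM in Gsk3sKO. Gsk3sKO replicate 3 was the lowest of the 6 libraries and the other two lay within the Ctrl range. The log2 fold change of -0.20 ± 0.28 (SE, limma adjusted p = 0.92) turned to 0.09 without that library. Nearly all of its signal, 88.7% to 99.9%, lay in the coding transcript Hdac3-201, which was at 18.01 ± 4.42 FPKM in Ctrl, against 16.2 ± 6.20 FPKM in Gsk3sKO (SD, n = 3).

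Hdac8 (chrX:102284639-102505359, minus strand), which acts outside these complexes and deacetylates the cohesin subunit Smc3, was at 3.82, 3.005 and 3.35 FPKM in Ctrl, against 5.95, 3.09 and 1.41 FPKM in Gsk3sKO. The Gsk3sKO libraries thus spanned more than the whole Ctrl range, in both directions, and the log2 fold change was -0.10 ± 0.38 (SE, limma adjusted p = 0.97). It was 0.28 without Gsk3sKO replicate 3. The coding transcript Hdac8-201 stood at 2.47, 2.62 and 2.84 FPKM in Ctrl, against 3.97, 0.925 and 1.41 FPKM in Gsk3sKO. It led in all libraries but Gsk3sKO replicate 2, where the retained-intron transcript Hdac8-204 held 54.6% of the gene total.

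Hdac4 (chr1:91928779-92195699, minus strand), a class IIa enzyme that represses MEF2 targets in neurons, was at 13.94, 14.005 and 17.93 FPKM in Ctrl, against 12.97, 14.57 and 14.62 FPKM in Gsk3sKO. The log2 fold change was -0.11 ± 0.17 (SE, limma adjusted p = 0.93), and without Ctrl replicate 3, the highest library, it was 0.01. Its spread was small, with an SD of 0.15 that only 17.5% of 4678 genes of like level undercut. The full coding transcript Hdac4-202 (ENSMUST00000097644) led in every library and was at 6.44, 10.02 and 11.63 FPKM in Ctrl, against 10.95, 10.40 and 9.34 FPKM in Gsk3sKO. Ctrl replicate 1 had the lowest Hdac4-202 and also the highest level of the noncoding processed transcript Hdac4-208, 5.34 FPKM beside 0 and 1.80 FPKM in the other Ctrl libraries and 1.44, 0 and 0.093 FPKM in Gsk3sKO. The short coding transcript Hdac4-205, with 4 exons, was at 1.06 ± 0.279 FPKM in Ctrl, against 0.968 ± 1.05 FPKM in Gsk3sKO (SD, n = 3).

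Hdac5 (chr11:102194432-102230166, minus strand), a class IIa enzyme that neuronal activity sends out of the nucleus, was at 25.2, 24.6 and 30.7 FPKM in Ctrl, against 19.0, 29.9 and 17.9 FPKM in Gsk3sKO. Gsk3sKO replicates 1 and 3 were below every Ctrl library and replicate 2 was within their range, with a log2 fold change of -0.29 ± 0.21 (SE, limma adjusted p = 0.85). The gene total hid a large shift between the estimated levels of its transcripts from library to library. Hdac5-204 (ENSMUST00000107152, 27 exons) was at 0.192, 18.5 and 18.5 FPKM in Ctrl, against 0, 21.5 and 0 FPKM in Gsk3sKO. Hdac5-201 (ENSMUST00000008999, 29 exons) was at 0.123, 0.058 and 1.21 FPKM in Ctrl, against 9.62, 0.192 and 8.92 FPKM in Gsk3sKO. The 3 libraries with Hdac5-204 near 0 were therefore 1 Ctrl and 2 Gsk3sKO libraries, and Gsk3sKO replicate 2 carried the same leading transcript as Ctrl replicates 2 and 3.

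These 2 coding transcripts open with different start codons, shown here because they mark where the coding sequences part. The segments below are coding in 1 of the 2 transcripts only, on the minus strand of GRCm38, with the start codon in capitals.
Hdac5-201, chr11:102218491-102218566: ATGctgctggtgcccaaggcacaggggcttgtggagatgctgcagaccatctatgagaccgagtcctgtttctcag
Hdac5-204, chr11:102224734-102224755: ATGaactctcccaacgagtcgg
The 76 bases of the first segment lie in no exon of Hdac5-204, and the 22 bases of the second lie in an exon of Hdac5-201 ahead of its start codon. Toward the end of the coding sequence, 1 base is coding only in Hdac5-201 and 37 bases only in Hdac5-204. The other coding bases are shared, and the whole transcripts measure 4269 bases (Hdac5-201) and 3788 bases (Hdac5-204). The division of reads between them was an estimate of the authors' assembler. No difference was called for either one: the log2 fold change was -1.45 ± 1.62 for Hdac5-204 (SE, limma adjusted p = 0.91) and 1.86 ± 0.93 for Hdac5-201 (SE, limma adjusted p = 0.84). Without Gsk3sKO replicate 2, Hdac5-201 passed the unadjusted threshold (log2 fold change 2.89, limma adjusted p = 0.44), a fit in which both remaining Gsk3sKO libraries are those led by Hdac5-201.

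The remaining Hdac5 transcripts moved by library as well. Hdac5-220 (ENSMUST00000156337), annotated as coding but with only 692 bases in 5 exons, led in Ctrl replicate 1 with 12.7 FPKM, beside 0 and 4.80 FPKM in the other Ctrl libraries and 0, 1.67 and 0 FPKM in Gsk3sKO. Without Ctrl replicate 2 it was called lower in Gsk3sKO (limma adjusted p = 0.96). Hdac5-203 was at 0, 0.575 and 1.29 FPKM in Ctrl, against 6.53, 0.087 and 0.716 FPKM in Gsk3sKO, so that its highest value came from Gsk3sKO replicate 1 alone. Hdac5-205, annotated as a target of nonsense-mediated decay, was detected in all 6 libraries, at 5.37 ± 3.54 FPKM in Ctrl, against 3.81 ± 2.17 FPKM in Gsk3sKO (SD, n = 3, limma adjusted p = 0.93).

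**Figure D3:**
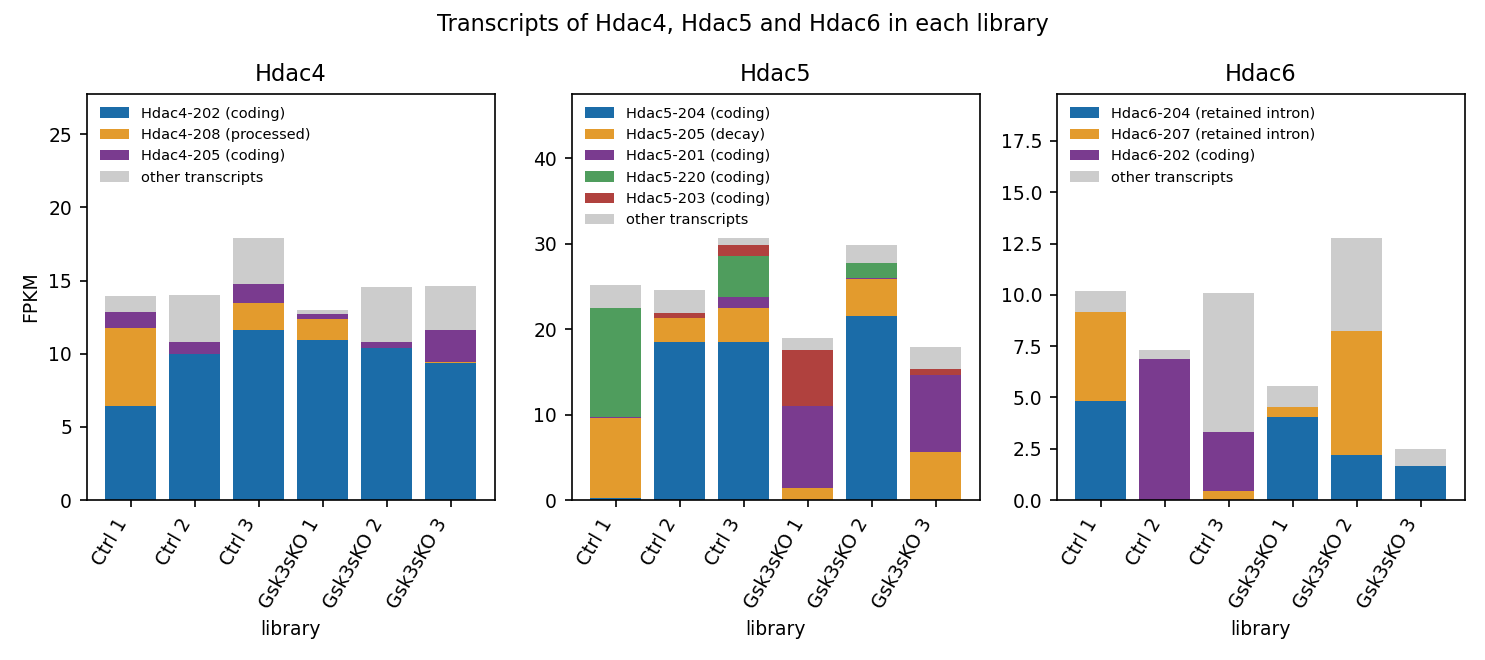
FPKM of the transcripts of Hdac4, Hdac5 and Hdac6 stacked to the gene total in each of the 6 libraries. Transcripts with a mean of at least 1 FPKM have a color each and their annotated type in the key (coding, retained intron, processed, or decay for nonsense-mediated decay), and all others are grey. Hdac4-202 is the largest part of Hdac4 in each library, while the leading Hdac5 and Hdac6 transcripts change from library to library within both groups.

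Hdac9 (chr12:34047580-34917095, minus strand) was at 23.7, 23.0 and 20.3 FPKM in Ctrl, against 19.5, 22.0 and 18.3 FPKM in Gsk3sKO. It was steady in both groups, with an SD of 0.12 that only 11.7% of 4008 genes of like level undercut, and the log2 fold change was -0.16 ± 0.15 (SE, limma adjusted p = 0.88, 95% interval -0.50 to 0.19). All of this signal belonged to 1 listed transcript, Hdac9-201 (ENSMUST00000110819), although GENCODE M21 annotates 10 for the gene. Hdac9-201 codes for 588 residues, beside 1067 in Hdac9-204, and 97.3% of its coding bases are also coding in Hdac9-204. It ends before the catalytic segment, so the codon shown above for Hdac9-204 is absent from it. Its last coding bases and stop codon, in capitals, show where the short form ends, at chr12:34373827-34373859.
Hdac9-201: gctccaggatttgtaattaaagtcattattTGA
The longer Hdac9 transcripts were not analysed here, and whether their reads were counted toward Hdac9-201 was not tested.

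Hdac7 (chr15:97792664-97844502, minus strand), best known from endothelial cells and thymocytes, was low, at 1.56, 2.46 and 1.31 FPKM in Ctrl, against 1.305, 0.535 and 1.61 FPKM in Gsk3sKO. The log2 fold change was -0.38 ± 0.34 (SE, limma adjusted p = 0.87), with Gsk3sKO replicate 3 inside the Ctrl range. None of its 12 listed transcripts reached a mean of 1 FPKM, and the coding transcript Hdac7-203 led in each library with 47.3% to 100% of the gene total. The summed level of 8 endothelial marker genes was 14.5 to 56.4 FPKM in Ctrl and 21.6 to 44.1 FPKM in Gsk3sKO, and its part in the Hdac7 level was not tested.

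Hdac6 (chrX:7930120-7947889, minus strand), the class IIb enzyme that deacetylates tubulin and binds ubiquitin through a zinc finger, was at 10.2, 7.31 and 10.1 FPKM in Ctrl, against 5.55, 12.8 and 2.47 FPKM in Gsk3sKO. The Gsk3sKO libraries included both the highest and the lowest of the 6 values. The spread within groups, an SD of 0.73 on the log2(FPKM + 1) scale, was larger than that of 94.7% of 5057 genes of like level, and the log2 fold change was -0.57 ± 0.45 (SE, limma adjusted p = 0.86). Over the 6 libraries 67.1% of the Hdac6 FPKM lay in transcripts annotated with a retained intron, the highest such share among the 9 genes tested. By library this share was 91.0%, 0.32% and 44.7% in Ctrl and 88.7%, 92.0% and 80.7% in Gsk3sKO. Ctrl replicates 2 and 3 were thus low, while Ctrl replicate 1 was like the Gsk3sKO libraries.

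Hdac6-204 (ENSMUST00000137499), a retained-intron transcript of 27 exons, was at 4.85, 0 and 0 FPKM in Ctrl, against 4.05, 2.22 and 1.68 FPKM in Gsk3sKO (limma adjusted p = 0.89). Hdac6-207 (ENSMUST00000153788), a retained-intron fragment of 894 bases, was at 4.32, 0.002 and 0.433 FPKM in Ctrl, against 0.467, 6.02 and 0 FPKM in Gsk3sKO (limma adjusted p = 0.99). The full coding transcript Hdac6-202 (ENSMUST00000115642) was at 0, 6.87 and 2.88 FPKM in Ctrl and was listed at 0 in all 3 Gsk3sKO libraries (limma adjusted p = 0.84), so no fold is given. A second full coding transcript, Hdac6-201, named here after its values were seen, was at 0.877, 0.386 and 2.64 FPKM in Ctrl, against 0.585, 0.484 and 0.476 FPKM in Gsk3sKO. Without Ctrl replicate 1, Hdac6-202 (limma adjusted p = 0.38) and Hdac6-204 (limma adjusted p = 0.59) passed the unadjusted threshold.

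With only protein-coding transcripts summed, Hdac6 was at 0.916, 7.28 and 5.57 FPKM in Ctrl, against 0.628, 1.02 and 0.476 FPKM in Gsk3sKO. Ctrl replicate 1 lay among the Gsk3sKO libraries. On this sum Hdac6 was called lower, with a log2 fold change of -1.48 ± 0.53 (SE, limma adjusted p = 0.85, 95% interval -2.71 to -0.24), beside 5.63% of all 10954 protein-coding gene totals called at the same unadjusted threshold. It was the 1 HDAC gene called on protein-coding sums. Hdac2 (log2 fold change 0.34) and Hdac7 (-0.41) were not, although the protein-coding sums of Hdac7 did not overlap between groups, as held for 11.6% of all protein-coding gene totals (1.09 to 2.07 FPKM in Ctrl, 0.535 to 1.05 FPKM in Gsk3sKO).

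Hdac10 (chr15:89123307-89128700, minus strand), a polyamine deacetylase, was below the filter and was not tested. It was listed at 0 in Ctrl replicate 1 and Gsk3sKO replicate 2, and at 0.798 and 0.823 FPKM in the other Ctrl libraries and 0.50 and 0.451 FPKM in the other Gsk3sKO libraries. Of its FPKM, 87.2% lay in retained-intron transcripts, chiefly Hdac10-205, and its coding transcripts were above 0 in Gsk3sKO replicate 3 only, at 0.212 FPKM.

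The share of each gene total that lay in coding transcripts holding the 33-base catalytic window differed widely between the genes. For class I it was 88.8% for Hdac1, 89.8% for Hdac2, 95.5% for Hdac3 and 69.0% for Hdac8 over the 6 libraries. For class IIa it was 67.8% for Hdac4, 59.8% for Hdac5, 79.3% for Hdac7 and 0 for Hdac9. The Hdac9 value was fixed in advance, since its 1 listed transcript lacks the window and the longer Hdac9 transcripts were not analysed. For class IIb it was 31.4% for Hdac6, with both domains in the same transcripts, and 8.22% for Hdac10. With transcripts of any type counted, it was 90.3% for Hdac1, 100% for Hdac3, 77.6% for Hdac4 and 83.6% for Hdac5. For Hdac6 it was then 31.4% at the first domain and 81.1% at the second, and for the other genes it was unchanged. The windows of Hdac6, Hdac8 and Hdac10 span an exon junction. Whether other transcripts of these genes hold the codon without the whole window was not tested. In coding transcripts the Hdac6 share was 8.60%, 99.4% and 54.8% in Ctrl and 10.5%, 3.79% and 19.3% in Gsk3sKO, and without Ctrl replicate 2 the pooled share was 19.3%. The Hdac10 value came from Gsk3sKO replicate 3 alone and was 0% without it. These recomputed shares were chosen after seeing the data. Ctrl replicate 1 had the lowest share for Hdac4 (46.2%) and Hdac5 (1.25%), and in this library Hdac5-220, which does not hold the window, was the leading Hdac5 transcript. With the histidine of class IIa set apart, the coding transcripts that hold a catalytic tyrosine were thus dominated by Hdac2 (42.1 FPKM on average), Hdac3 (17.1 FPKM) and Hdac1 (8.57 FPKM), with Hdac10 at 0.035 FPKM. By the same measure Hdac6 was at 4.55 ± 3.30 FPKM in Ctrl, against 0.515 ± 0.061 FPKM in Gsk3sKO (SD, n = 3). Hdac8 was at 2.64 ± 0.18 FPKM in Ctrl, against 2.104 ± 1.637 FPKM in Gsk3sKO (SD, n = 3). Hdac6 exceeded Hdac8 in Ctrl replicates 2 and 3 and lay below it in the other libraries.

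**Figure D4:**
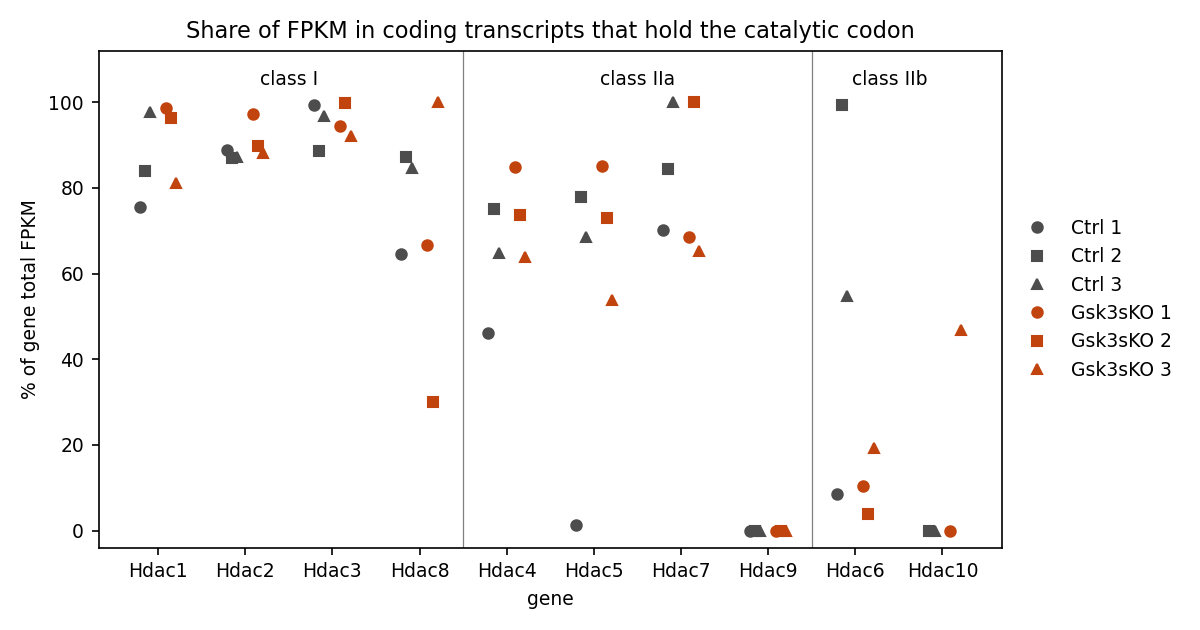
Percentage of the gene total FPKM that lay in coding transcripts holding the catalytic codon window, for each gene and library (Ctrl in grey, Gsk3sKO in orange), grouped by class. Libraries with a gene total of 0 have no point for Hdac10. Hdac1, Hdac2 and Hdac3 lie above 75% in each library, and Hdac5 and Hdac6 spread over most of the scale. Hdac9 lies at 0 because its 1 listed transcript lacks the window.

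Library-to-library switching of estimated transcript levels was not limited to the deacetylases. Whether it lay in the RNA or in the split of reads between transcripts was not tested. Among 15510 transcripts of the whole table that were above 5 FPKM in at least 1 library, 31.8% were under 0.25 FPKM in another, and among the HDAC transcripts this held for 7 of 13, limits that were chosen after the values were seen. The same transcript led in every library for 5 of the 8 tested HDAC genes with more than 1 listed transcript (Hdac1, Hdac2, Hdac3, Hdac4 and Hdac7) and for 47.5% of 8969 such genes in the table.

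Genes that act with the deacetylases were followed in 12 lists with 120 genes, of which 113 were tested. Of these, 2 were called higher and 4 lower, 5.31% of those tested beside 6.56% of all gene totals, and the median log2 fold change was -0.02 beside -0.06. None had an adjusted p under 0.05 (smallest 0.69). Leaving out Ctrl replicate 1, Ctrl replicate 2 or Gsk3sKO replicate 3 brought these calls down to 3, while the calls over all gene totals went from 844 to 687, 573 and 664. For the class I partners, 1 of 15 Sin3 genes and 1 of 13 NuRD genes was called, the same gene in both. It was Rbbp7, a histone-binding subunit of both complexes, which fell from 86.3 ± 22.6 to 61.0 ± 9.58 FPKM (SD, n = 3, log2 fold change -0.48, limma adjusted p = 0.75). None of 11 CoREST genes or 3 MiDAC genes was called. The most abundant of these were Kdm1a (log2 fold change 0.08) and Ctbp1 (-0.02), and Dnttip1 (-0.19) and Trerf1 (0.00).

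Among 11 genes of cohesin and its loader, which include the Hdac8 substrate Smc3, Pds5b, a regulator of cohesin release, rose from 23.3 ± 4.13 to 32.4 ± 5.96 FPKM (SD, n = 3, log2 fold change 0.46, limma adjusted p = 0.75). Of the 3 MEF2 factors tested, Mef2c, a transcription factor that class IIa enzymes repress, rose. It was at 152, 183 and 180 FPKM in Ctrl, against 214, 216 and 216 FPKM in Gsk3sKO (log2 fold change 0.33 ± 0.13, SE, limma adjusted p = 0.74). The Mef2c groups did not overlap, as held for 12% of all gene totals tested. Of the other called partner genes, Rbbp7 and the Ubb, Srm and Sirt3 given below did not overlap either, while Pds5b did. All of these genes were picked by their p in the same libraries, which favors groups without overlap, so this adds no support. No call was made among 6 14-3-3 genes or among 17 kinases of class IIa export (Camk2a 0.12 and Camk2b 0.29 on the log2 scale). The 14-3-3 log2 fold changes were all negative, from -0.23 to -0.0005, beside a median of -0.06 over all gene totals. Ywhah (-0.12) and Ywhaz (-0.15) were the most abundant.

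For class IIb, 1 of 11 Hdac6 partners and tubulin acetylation genes was called: Ubb, a polyubiquitin gene, fell from 1162 ± 154 to 832 ± 106 FPKM (SD, n = 3, log2 fold change -0.48, limma adjusted p = 0.69). Among 13 genes of polyamine metabolism, the spermidine synthase Srm fell from 20.8 ± 1.69 to 15.1 ± 2.46 FPKM (SD, n = 3, log2 fold change -0.45, limma adjusted p = 0.73). Of 8 other deacetylases, the mitochondrial Sirt3 fell from 12.9 ± 0.962 to 8.43 ± 3.02 FPKM (SD, n = 3, log2 fold change -0.62, limma adjusted p = 0.75). The calls given here and in the paragraph before belong to the 5.31% of tested partner genes called, beside 6.56% of all gene totals. They are thus no result about a list. Hdac11, the class IV enzyme, was at 49.3, 25.2 and 47.1 FPKM in Ctrl, against 43.9, 49.8 and 26.7 FPKM in Gsk3sKO, with 1 low library in each group.

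Markers of other cells moved between the groups in part. Of 7 tested microglia markers 2 were called lower and 0 higher, and their summed level was 27.8 to 39.1 FPKM in Ctrl and 18.8 to 24.2 FPKM in Gsk3sKO, without overlap. Of 8 tested oligodendrocyte markers 3 were called lower, with summed levels of 125 to 190 FPKM in Ctrl and 132 to 172 FPKM in Gsk3sKO. Of 9 excitatory neuron markers 1 was called lower, and 0 of 4 D2 neuron, 0 of 10 inhibitory neuron, 0 of 8 astrocyte and 0 of 8 endothelial markers were called. Summed levels overlapped between groups for the excitatory neuron (1578 to 1828 and 1379 to 1666 FPKM), astrocyte (176 to 220 and 183 to 228 FPKM) and inhibitory neuron markers (1125 to 1502 and 1080 to 1136 FPKM). The part of these other cells in the HDAC levels was not tested.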

How the data were processed

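RNAseq of RNA bound to tagged ribosomes covered 3 Ctrl and 3 Gsk3sKO libraries, grouped by the submitters' genotype labels. The authors deposited FPKM per transcript and library, made with HISAT2 2.1.0, SAMtools 1.9 and StringTie 1.3.4d per the submitters' processing notes, on GRCm38. Their settings were not stated in the sources read. The deposited table also holds the authors' fold, p-value and q-value for each transcript, which were not used. It holds no counts, so the depth behind a value is unknown and no counting interval is given. FPKM divides by library size and transcript length, and the split of reads between overlapping transcripts is an estimate. A listed 0 can be a failed estimate.

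FPKM were summed by gene identifier and analysed as log2(FPKM + 1), a scale that understates changes of low genes. Features with a mean of at least 1 FPKM were fitted with limma 3.58.1 (lmFit, eBayes with a trend) in R 4.3.3, two-sided, and called at an unadjusted p under 0.05. Benjamini-Hochberg adjustment ran over all features tested. Neighbouring levels were compared with an exact paired permutation test (Python 3.11.15, numpy 2.4.6). The limma fit was tested on simulated data.

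Of the transcripts, 114332 matched GENCODE M21 and 888 did not. Transcript types, coordinates and sequences came from it. All 10 members, their transcripts with a mean of at least 1 FPKM and Gsk3b were named, with up to 3 called genes of each partner list or else its 2 most abundant ones. The values of 1 partner list are not reported here. Members and lists were chosen with earlier results of these data known. Alternatives were another pseudocount (0.1), no filter or one at 5 FPKM, median-ratio rescaling, no moderation, a replicate block, each library left out, and protein-coding transcripts only.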

Additional observations from a re-analysis of the deposited data

How the results depend on the processing

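The table has no counts, so low transcripts such as those of Hdac7 and Hdac10 have an unknown error. Same-numbered libraries did not deviate together (r = -0.027, -0.011 and -0.081), so the numbers were not used to pair samples. With the replicate block 0 HDAC gene totals, 0 HDAC transcripts, 821 gene totals and 4 partner genes were called, and no HDAC call changed. With protein-coding transcripts only, 1 HDAC gene total was called and the log2 fold changes of Hdac4 (0.14) and Hdac1 (0.047) turned positive, and 5 neighbour pairs differed, in an order with Hdac9 above Hdac5. Rescaling turned Hdac1 to 0.015. It moved the calls over all genes from 175 higher and 669 lower to 307 and 502, and none was an HDAC gene. A pseudocount of 0.1 turned Hdac2-202 to -0.41. Without a filter 1917 transcripts were called, 1 of them of an HDAC gene, of 69611 tested, and at 5 FPKM 590 of 9662.

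Leaving out 1 library at a time gave 0 to 2 HDAC gene totals, 0 to 2 HDAC transcripts and 3 to 7 partner genes called, beside 573 to 1178 of all gene totals and 878 to 1726 of all transcripts, and a Gsk3b log2 fold change of -0.61 to -0.28. Log2 fold changes that changed sign ranged from -0.11 to 0.025 (Hdac1), -0.42 to 0.087 (Hdac3), -0.16 to 0.0056 (Hdac4) and -0.48 to 0.28 (Hdac8), and among transcripts from -0.078 to 0.15 (Hdac1-201), -0.27 to 0.89 (Hdac2-202), -0.44 to 0.12 (Hdac3-201), -0.074 to 0.31 (Hdac4-202), -0.28 to 0.064 (Hdac4-205), -0.70 to 0.044 (Hdac5-205) and -0.70 to 0.86 (Hdac6-207). The cause was not tested. Of 313 single HDAC values recomputed, 284 kept their direction and side of the threshold.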
